A study of Mus musculus with 2 samples.

Results

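The cytosolic ribosomal protein genes encode the protein parts of the ribosome, the particle that translates mRNA in the cytoplasm. They were taken by gene symbol: Rpl or Rps followed by a number and its usual suffixes, together with Rplp0, Rplp1, Rplp2 and Rpsa, with symbols that end in -ps left out. This gave 84 of the 32534 features of the count matrices, of which 52 encode proteins of the large subunit and 32 proteins of the small subunit. The set held 77 standard genes and 7 paralogs whose symbols carry an l (Rpl3l, Rpl7l1, Rpl10l, Rpl22l1, Rpl36al, Rpl39l and Rps27l). Rps4l was not analysed here.

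Cells of dissociated olfactory epithelium, the sensory tissue of the nose, had been sequenced by the 10x Genomics 3′ method, which tags every captured mRNA molecule with a barcode (unique molecular identifier, UMI) and reads the ends of transcripts. There was 1 library of a female OR1A1 transgenic mouse aged 9 weeks, hemizygous for Tg(Or8a1-OR1A1,-MAPT/mCherry)D736Feins, a construct named for the human odorant receptor OR1A1, the mouse receptor gene Or8a1, MAPT and the red fluorescent protein mCherry. The other library came from a wild-type female aged 8 weeks, whose strain label gives the line 10G4-V2.2-#7/Jax crossed to Bl6/129SF1/J. With 1 library a genotype, differences between the libraries were not tested, and genotype, strain, age and library cannot be told apart. The feature for the transgene had 2904 UMIs in the cells of the transgenic library and 0 in the wild-type cells.

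Ribosomes are built in the nucleolus from ribosomal RNA and one copy of nearly every ribosomal protein, so the genes are usually expressed together and most strongly in cells that grow and divide. Many ribosomal protein mRNAs begin with a TOP element, a cytosine followed by a run of pyrimidines, through which mTOR signalling controls their translation. In the olfactory epithelium, horizontal basal cells (HBCs, the reserve stem cells) and globose basal cells (GBCs, the dividing progenitors) replace olfactory sensory neurons (OSNs) throughout life, by way of immediate neuronal precursors (INPs) and immature neurons.

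The filters left 1745 transgenic cells (median 14440 UMIs) and 1117 wild-type cells (median 12983 UMIs), and 1 barcode sequence occurred in both libraries. The ribosomal protein genes took 9.61% of the UMIs of the transgenic cells and 10.9% of those of the wild-type cells. The mix of cells differed between the libraries, for example with 6 and 32 cells in a cluster led by Ctsg and 69 and 21 HBC-like cells. Its part in these totals was not tested. In barcodes with too few UMIs to be cells, which stand for free RNA, the ribosomal protein genes took 8.33% in the transgenic library, and 7.43% in the wild type. Without mitochondrial UMIs the free RNA had 13.3% and 15.2%, so that the order of the libraries turned with the denominator. Of the 84 genes, 81 had more than 1000 UMIs over both libraries and 3 had fewer than 100. Rpl41 (135525 UMIs), Rps29 (129938), Rpl13 (123230) and Rps24 (114691) were among those with the most, and Rpl7l1 (2365) and Rpl13a (6760) the fewest of the 81. Clusters had been made without any ribosomal protein gene, so that these genes played no part in defining the cell classes below, which are named only as resembling the type whose markers they carry.

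Along the neuronal lineage the share of summed UMIs in ribosomal protein genes was lower at each later stage, in both libraries. It was 17.2% in transgenic and 16.9% in wild-type GBC-like cells (53 and 7 cells). In INP-like cells it was 13.05% in the transgenic library, and 13.5% in the wild type (84 and 18 cells). The immature OSN-like class had a cluster led by Scart1, at 9.74% in the transgenic library, and 10.1% in the wild type (167 and 42 cells), and a cluster led by Ovch2, at 6.89% and 7.45% in the same order (39 and 11 cells). A cluster led by Calb2, which missed the threshold for a name, had 6.002% in the transgenic library, and 6.05% in the wild type (108 and 25 cells). Mature OSN-like cells had the lowest share of the lineage, 5.23% in the transgenic library, and 5.46% in the wild type (665 and 447 cells). Medians of the cells kept this order except at the first step of the wild type. There the median was 13.2% in the 7 GBC-like cells and 13.9% in the 18 INP-like cells.

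The stages carried the markers of the sequence. Top2a, which untangles DNA in dividing cells, stood at 1065 and 1085 counts per 1000000 UMIs (CPM) in GBC-like cells of the transgenic and wild-type library, against at most 25.9 CPM in the later stages. Gap43, a growth-cone protein, stood at 2734 and 2363 CPM in the Scart1-led cluster and at 64.5 and 23.3 CPM in mature cells. Omp, the marker of mature OSNs, was at 34.3 and 16.8 CPM in GBC-like cells, 204 and 393 CPM in the Scart1-led, 1413 and 1780 CPM in the Ovch2-led and 3475 and 3456 CPM in the Calb2-led cluster, and 4978 and 5057 CPM in mature cells.

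**Figure D1:**
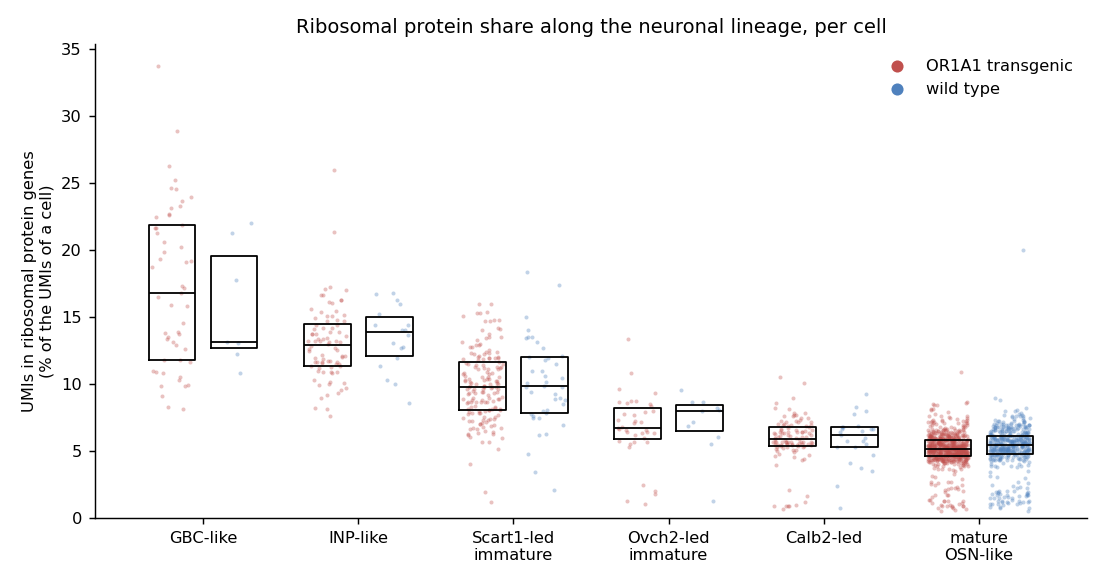
Share of each cell's UMIs in the 84 ribosomal protein genes (vertical axis, %) at 6 stages of the neuronal lineage, with 1 point a cell, boxes from the lower to the upper quartile and a line at the median, transgenic cells left and wild-type cells right. The median was 16.8% in transgenic and 13.2% in wild-type GBC-like cells and 5.18% and 5.47% in mature OSN-like cells, and some neurons of both libraries lay under 2%.

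In the transgenic library the share was 5.23% in mature and 9.18% in immature OSN-like cells, a log2 ratio of -0.81 with a 95% counting interval of -0.82 to -0.80. In the wild-type library it was 5.46% in mature and 9.43% in immature cells, a log2 ratio of -0.79 (-0.80 to -0.78). Against GBC-like cells the mature share was 3.28-fold lower in the transgenic library, and 3.09-fold lower in the wild type. The intervals cover counting error only, and not the spread between animals. Fewer UMIs of these genes per cell went with the lower share: the median number was 5.40-fold lower in mature than in GBC-like cells of the transgenic library (3972 UMIs in GBC-like cells), and 6.26-fold lower in the wild type (702 in mature and 4395 in GBC-like cells). UMIs of all other genes differed less, with medians of 13149 and 11691 in mature and 23758 and 30302 in GBC-like cells. Within the GBC-like class, cells with 10 or more UMIs of Neurod1, a transcription factor of differentiating neuronal precursors, had shares of 12.2% (23 transgenic cells) and 12.1% (4 wild-type cells). Those with fewer Neurod1 UMIs had 20.6% (30 cells) and 20.7% (3 cells). This split was chosen after the cells had been seen. The cells with 10 or more Neurod1 UMIs lay below INP-like cells, which had 13.05% and 13.5%. The transgenic GBC-like class held 1 cell rich in hemoglobin UMIs, and the share without it was 17.4%.

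The lower share of mature cells was spread over nearly the whole gene set. A gene counted as measured where any of the sums compared reached 20 CPM and 50 UMIs, and 81 of the 84 genes passed. In mature against immature OSN-like cells 58 of the 81 were lower by more than 1.5-fold in both libraries, against 21.3% of all 7922 measured genes, and 0 of 81 were higher past that fold, against 14.6%. The 58 comprised 37 of 49 measured large-subunit genes and 21 of 32 small-subunit genes. All 81 log2 ratios were below 0 in each library. Their median was -0.81 in the transgenic library, and -0.76 in the wild type, where the median of all measured genes was -0.17 and -0.13. When libraries were scaled by the median of gene ratios instead, the calls over all genes were 1322 lower and 1394 higher, against 1686 lower and 1160 higher by total UMIs, and 43 ribosomal protein genes were then lower past 1.5-fold. With the Calb2-led cluster counted as immature, 35 were lower. Between mature and GBC-like cells 80 of 81 genes were lower past 1.5-fold in both libraries, against 26.0% of all measured genes, and 0 were higher, against 30.6%.

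The genes with the lowest ratios of mature over immature cells came from both subunits. Rpl10, a large-subunit protein that joins late in ribosome assembly, stood at 518 CPM in mature and 1556 CPM in immature cells of the transgenic library. In the wild-type library it stood at 493 and 1635 CPM in mature and immature cells, so that it was 3.01-fold and 3.32-fold lower in mature cells of the transgenic and wild-type library. Rplp0, the base of the ribosomal stalk that recruits translation factors, stood at 330 CPM in mature and 929 CPM in immature transgenic cells, and at 312 and 973 CPM in wild-type ones. Its log2 ratios were -1.49 (-1.57 to -1.42) in transgenic cells and -1.64 (-1.76 to -1.52) in wild-type cells. Rps26, a small-subunit protein at the mRNA exit, had log2 ratios of -1.47 and -1.38 in the transgenic and wild-type library. Rpl35a of the large subunit stood at 394 and 451 CPM in mature and 1010 and 1162 CPM in immature cells of the transgenic and wild-type library, log2 ratios of -1.36 and -1.37. Rps19 of the small subunit, the gene most often mutated in human Diamond-Blackfan anaemia, stood at 545 and 608 CPM in mature and 1359 and 1462 CPM in immature cells, log2 ratios of -1.32 and -1.27. In each of these 5 genes, which were chosen by this same ratio, both immature levels lay above both mature ones.

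At the other end 5 genes differed little between mature and immature cells. Rps25, a small-subunit protein, stood at 748 CPM in mature and 836 CPM in immature transgenic cells and at 808 and 933 CPM in wild-type ones, log2 ratios of -0.16 (-0.23 to -0.10) and -0.21 (-0.32 to -0.10). Rpl3, of the core of the large subunit, had log2 ratios of -0.23 and -0.21. Rplp1, a stalk protein bound to Rplp0, had -0.27 and -0.22, and Rpl9 of the large subunit -0.30 and -0.22. Rpl7l1 had -0.35 (-0.61 to -0.06) in the transgenic library, and -0.27 (-0.74 to 0.29) in the wild-type library, where the interval includes 0.

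The genes differed in where along the lineage they came down. From GBC-like to INP-like cells 11 of 81 (13.6%) were lower past 1.5-fold in both libraries, a smaller part than the 18.0% of all measured genes. Among the 11 were Rpl22l1, Rps2, Rps27l, Rpl12, Rplp1 and Rpl3. The wild-type side of this step rests on 7 GBC-like cells. From INP-like to Scart1-led immature cells 15 were lower, against 8.05%, with Rplp0 at log2 ratios of -0.79 and -0.95 in the transgenic and wild-type library. From the Scart1-led to the Ovch2-led cluster 15 were lower, against 6.75%, among them Rps26 (-1.12 and -0.84), Rpl37 (-0.96 and -0.82), Rplp0 (-0.91 and -0.77) and Rpl10 (-0.82 and -0.68). In the last 2 steps, to the Calb2-led cluster and on to mature cells, 0 of 81 were lower past that fold, against 2.87% and 6.85%. None was higher past 1.5-fold in both libraries in any of these 5 steps, against 15.8%, 21.9%, 8.22%, 3.21% and 3.77% of all measured genes.

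Rplp1 is an example of a gene that was lower from an early step on, and Rps26 of one that was lower only later. Rplp1 was at 2835 and 2984 CPM in GBC-like cells of the transgenic and wild-type library and at 1418 and 1633 CPM in INP-like cells. It then stayed between 1187 and 1483 CPM in every later stage of both libraries. Rps26 was at 2457 and 2142 CPM in GBC-like cells and at 2537 and 2420 CPM in INP-like cells. It stood at 1522 and 1552 CPM in the Scart1-led cluster, 701 and 862 CPM in the Ovch2-led cluster and 492 and 532 CPM in mature cells. Rpl10 was the only measured gene of the set with its highest level in the Scart1-led immature cluster in both libraries. It had 1351 and 1421 CPM in GBC-like, 1450 and 1288 CPM in INP-like and 1700 and 1806 CPM in Scart1-led cells. The highest of the 6 stages was the GBC-like one for 76 of 81 transgenic and 72 of 81 wild-type levels, against 24.3% and 24.5% of all measured genes. Rps26 and Rpl26 had theirs in INP-like cells in both libraries.

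**Figure D2:**
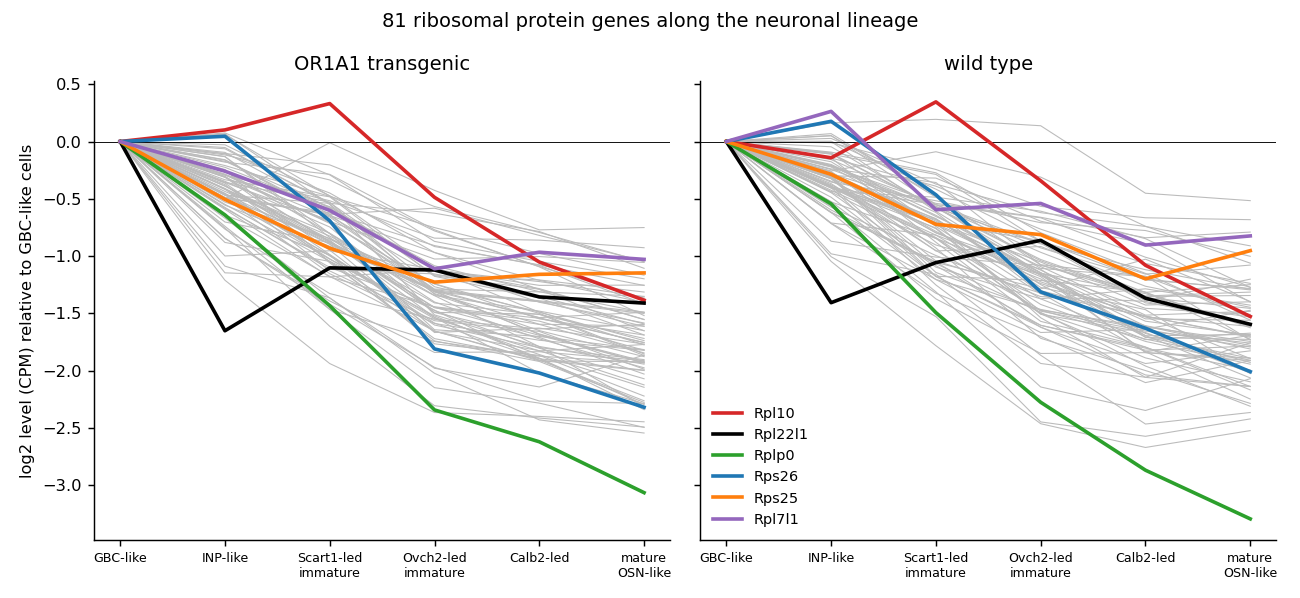
Level of each of 81 ribosomal protein genes along 6 stages of the neuronal lineage, as the log2 of its CPM relative to GBC-like cells (vertical axis), transgenic library left and wild-type library right, 1 line a gene. Rpl10 lies above 0 in the Scart1-led immature cluster in both libraries, and Rplp0 ends lowest, at -3.06 and -3.29 in mature cells on the log2 scale.

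Promoter windows of some of the genes named in this report are given below, picked by hand and not by a ranking. RefSeq entries of the mouse build GRCm38.p6 were matched by symbol for 64 of the 84 genes. The windows below run from 20 bases before to 30 bases after the first listed start of the gene, 5′ to 3′ on its own strand. Capitals mark each run of 6 or more pyrimidines that is led by C (the letter C and then at least 5 letters C or T).
Rpl10: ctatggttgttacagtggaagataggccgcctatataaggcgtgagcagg
Rplp0: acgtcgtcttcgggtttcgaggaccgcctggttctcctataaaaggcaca
Rps26: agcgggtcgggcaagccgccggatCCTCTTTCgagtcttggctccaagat
Rpl35a: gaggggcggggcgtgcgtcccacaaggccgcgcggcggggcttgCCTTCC
Rps25: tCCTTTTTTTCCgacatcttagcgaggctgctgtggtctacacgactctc
Rpl26: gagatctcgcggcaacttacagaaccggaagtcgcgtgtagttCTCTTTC
Rps27: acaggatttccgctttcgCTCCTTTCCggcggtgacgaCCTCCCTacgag
Rps27l: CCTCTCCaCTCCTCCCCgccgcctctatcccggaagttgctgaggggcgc
Rpl22: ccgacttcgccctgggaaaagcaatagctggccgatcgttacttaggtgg
Rpl22l1: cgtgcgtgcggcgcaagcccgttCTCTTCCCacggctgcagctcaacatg

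The windows are chrX:74270796-74270845 (plus strand) for Rpl10, chr5:115559447-115559496 (plus) for Rplp0, chr10:128626477-128626526 (minus) for Rps26, chr16:33056433-33056482 (plus) for Rpl35a and chr9:44407694-44407743 (plus) for Rps25. Those of the others are chr11:68901546-68901595 (plus) for Rpl26, chr3:90213619-90213668 (minus) for Rps27, chr9:66946066-66946115 (plus) for Rps27l, chr4:152325706-152325755 (plus) for Rpl22 and chr3:28805488-28805537 (plus) for Rpl22l1. A run of this kind was in the window of 44 of the 64 genes (68.8%), against 34.3% of 27025 promoters of the same length. A C followed by 4 pyrimidines stood directly at the listed start in 12 of 64 (18.8%), against 2.49% of all promoters. The letters CCGGAAG, the core bound by ETS-family transcription factors, were found on either strand between 250 bases before and 50 bases after the start in 25 of 64 (39.1%), against 9.12%. The windows of Rps26, which was much lower in mature cells, and of Rps25, which was not, both hold a run. The run of Rps26 lies after the listed start, and that of Rps25 lies before it. The windows of Rpl10 and Rplp0 hold no run, but in both the letters TATA stand after the listed start. Whether transcription begins at the listed starts in these cells was not tested, and a run farther on would not be seen. A match is a description of letters and no evidence of a working element.

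Across the other cells of the tissue the share varied as widely as along the lineage. HBC-like cells had 20.02% of UMIs in ribosomal protein genes in the transgenic library, and 18.4% in the wild type (69 and 21 cells). Respiratory secretory-like cells, the secreting cells of the neighbouring airway lining, had 22.7% and 21.0% (30 and 40 cells). This class also carried HBC markers, with Krt5 at 658 and 865 CPM, against 1552 and 1874 CPM in HBC-like cells. Endothelial-like cells, of the vessel walls, had 13.4% and 13.2% (71 and 88 cells), tuft-type microvillar-like cells, chemosensory cells of the epithelium, 13.3% and 12.0% (40 and 22 cells), and fibroblast-like cells 11.3% and 10.9% (84 and 44 cells). Sustentacular-like cells, the supporting cells of the epithelium, had 8.99% and 9.87% (87 and 22 cells). Mature OSN-like cells had the lowest share among the 9 named classes with at least 20 cells in each library. The balance of the subunits varied less: small-subunit genes took between 42.1% and 46.7% of ribosomal protein UMIs in all 9 classes of both libraries.

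**Figure D3:**
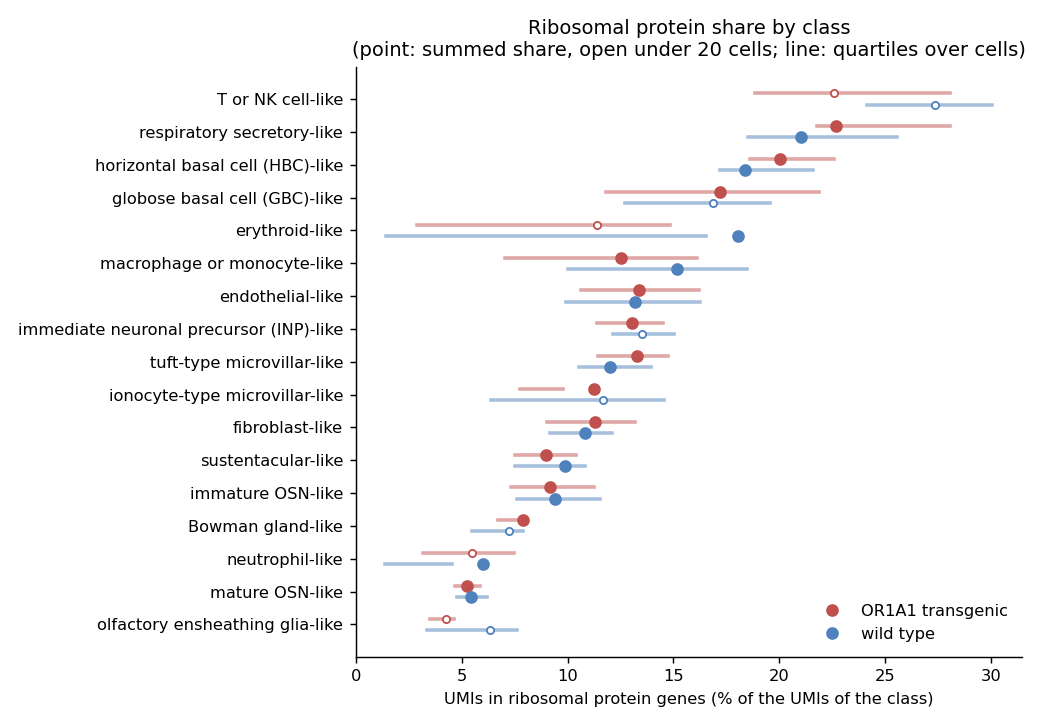
Share of UMIs in the 84 ribosomal protein genes by named class (horizontal axis, % of the class's UMIs), transgenic above and wild type below in each pair, with lines from the lower to the upper quartile of the cells and open points for fewer than 20 cells. Among filled pairs, respiratory secretory-like cells lie highest, at 22.7% and 21.0%, and mature OSN-like cells lowest, at 5.23% and 5.46%.

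The mix of ribosomal protein genes also varied between classes. Each gene's part of all ribosomal protein UMIs was taken per class on the log2 scale and averaged over the libraries. The range over the 9 classes had a median of 0.64 (quartiles 0.45 and 0.86) over the 81 measured genes. Rps27 of the small subunit stood out in HBC-like cells. It had 6505 and 7500 CPM there in the transgenic and wild-type library, against 1573 and 1769 CPM in GBC-like cells, log2 ratios of 2.05 and 2.08. Between HBC-like and GBC-like cells only 3 of 81 genes were higher past 1.5-fold in both libraries (Rps27, Rpl13 and Rpl30), against 22.2% of all measured genes. The 3 that were lower were Rpl7l1, Rpsa and Rpl29, against 34.4%.

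Other genes were high in other classes. Rps24 had 6035 and 5389 CPM in tuft-type microvillar-like cells of the transgenic and wild-type library. It had 5272 and 4657 CPM in HBC-like and 2008 and 2152 CPM in sustentacular-like cells. Rps29 had 5367 and 5771 CPM in macrophage or monocyte-like cells, against 3166 and 3242 CPM in endothelial-like cells. T or NK cell-like cells, too few to be among the 9 classes, had higher levels of both. They had 7906 and 7913 CPM of Rps24 and 6920 and 7013 CPM of Rps29. Levels in CPM also carry the total ribosomal protein share of a class. Rpl29, of the large subunit, had its largest part of the ribosomal protein UMIs in immature OSN-like cells of both libraries, with a range over classes of 1.36 on the log2 scale. The widest range of all, 1.93, was that of Rpl7l1, the paralog with the fewest UMIs among the measured genes (2365 over both libraries), so that counting error weighs most on it. Rpl41 took its largest part in mature OSN-like cells of both libraries.

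**Figure D4:**
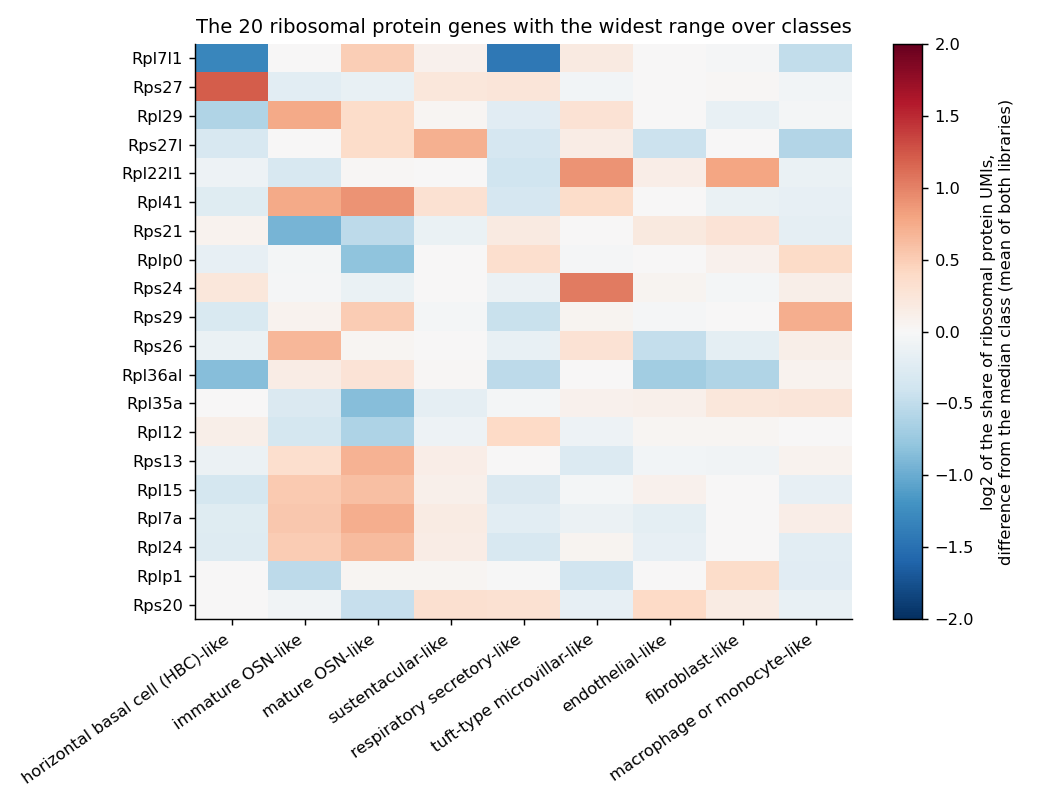
Difference of each gene's part of the ribosomal protein UMIs from its median over 9 classes (colour, log2, mean of both libraries) for the 20 measured genes with the widest range. Rps27 is darkest red in HBC-like cells, and Rps24 stands out in tuft-type microvillar-like cells.

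Of the paralogs, Rpl22l1, Rps27l, Rpl36al and Rpl7l1 were found throughout the tissue. Rpl22 is an RNA-binding protein of the large subunit and Rpl22l1 its paralog, which in mice can take its place. Rpl22l1 made up 24.0% (22.5 to 25.6) of the UMIs of the pair in transgenic and 29.0% (24.7 to 33.6) in wild-type GBC-like cells. It made up 13.6% and 17.7% in INP-like cells, 28.9% and 30.7% in the Scart1-led cluster, and 40.2% (38.7 to 41.7) and 37.3% (35.4 to 39.2) in mature cells. Its own level was lower in INP-like and in mature cells than in GBC-like ones, with 476 and 503 CPM in GBC-like, 151 and 190 CPM in INP-like, 221 and 242 CPM in Scart1-led and 179 and 166 CPM in mature cells. In mature cells Rpl22 was at 267 and 280 CPM, against 1503 and 1232 CPM in GBC-like cells. Tuft-type microvillar-like cells had the highest part of Rpl22l1 of the 9 classes, 45.6% and 48.2%.

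Rpl36al made up 16.9% of its pair with Rpl36a in transgenic and 10.7% in wild-type GBC-like cells, on 334 and 38 UMIs of Rpl36al. In mature cells it made up 37.1% (35.4 to 38.8) in transgenic cells, and 30.9% (28.9 to 33.0) in wild-type cells. It was the 1 measured gene not lower by 1.5-fold in mature than in GBC-like cells of both libraries, with log2 ratios of -0.75 and -0.55. Rps27l, the paralog of Rps27, made up 20.5% and 17.3% of its pair in mature cells and 27.3% and 20.7% in GBC-like cells. The lowest part among the 9 classes was in HBC-like cells, at 6.30% and 4.40%, where Rps27 itself was high. T or NK cell-like cells, with 7 transgenic and 14 wild-type cells, had 5.64% and 4.34%. Rpl7l1 made up 5.997% and 5.68% of its pair with Rpl7 in mature cells and 4.08% and 3.74% in GBC-like cells. The GBC-like values rest on only 121 and 16 UMIs of Rpl7l1.

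The other 3 paralogs were nearly absent. Rpl10l, known from testis, had 0 UMIs in the cells of both libraries. Rpl39l, also known from testis, had 14 UMIs in transgenic cells and 1 in wild-type cells. Of the 14, 13 lay in 5 of 84 fibroblast-like cells (5.95%, 95% binomial interval 1.96 to 13.3). In wild-type fibroblast-like cells it had 0 in 44 cells, which allows a share of up to 6.82% of cells with a UMI, so the libraries cannot be told apart at this depth. In mature OSN-like cells it had 0 in 665 transgenic cells, which allows up to 0.451%. Rpl3l, known from heart and skeletal muscle, had 11 UMIs in the transgenic library, and 9 in the wild type. Macrophage or monocyte-like cells held 7 and 3 of these, in 6 of 86 (6.98%, 2.60 to 14.6) and 2 of 90 cells (2.22%, 0.270 to 7.80), while mature OSN-like cells held 0. Neutrophil-like cells held 4 of the 9 wild-type UMIs, in 4 of 79 cells (5.06%, 1.40 to 12.5).

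Between the libraries the share differed little in neurons. In mature OSN-like cells it was 5.23% in the transgenic library, and 5.46% in the wild type, a log2 ratio of -0.06 (-0.07 to -0.05). In immature OSN-like cells it was 9.18% and 9.43%, a log2 ratio of -0.04 (-0.05 to -0.03), whose sign turned to 0.0051 without the cells of highest doublet score and to 0.0290 for medians of the cells. No animal of a genotype was measured more than once, so the spread these differences should be set against is unknown. Of mature cells of the transgenic library, those with 3 or more UMIs of the transgene had a share of 5.15%, those with 1 or 2 had 5.19% and those with 0 had 5.30%. The widest difference in the 9 classes was in macrophage or monocyte-like cells, with 12.5% in the transgenic library, and 15.2% in the wild type. That class joined a cluster led by C1qa (77 transgenic and 31 wild-type cells) and one led by Ccr2 (9 and 59 cells). Within the C1qa-led cluster the share was 11.3% in the transgenic library, and 9.64% in the wild type, and within the Ccr2-led cluster 21.0% and 17.4%. The direction within both clusters was the opposite of that of the class as a whole.

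Rpl29 and Rpl26, both of the large subunit, stood apart from all other genes of the set between the libraries. Of the 80 genes measured in all 9 classes, these 2 were lower by more than 1.5-fold in the transgenic library in every class, against 0.340% of all 883 genes measured in all classes (3 genes, the third being Obp2a, an odorant-binding protein of nasal glands). None of the 80 was higher in every class, against 0.227%. In mature cells Rpl29 had 104 CPM (transgenic) and 257 CPM (wild type), and in GBC-like cells 299 and 855 CPM. Its log2 ratio had a median of -1.38 over the 9 classes and ran from -1.64 to -1.23. Rpl26 had 563 CPM (transgenic) and 1038 CPM (wild type) in mature cells, and 1441 and 2636 CPM in GBC-like cells. Its log2 ratio had a median of -0.88 and ran from -1.11 to -0.80. In the free RNA the log2 ratios of both had the same sign, -0.94 for Rpl29 and -0.56 for Rpl26. Along the lineage Rpl29 had log2 ratios of mature over immature cells of -1.15 and -1.23 in the transgenic and wild-type library, and Rpl26 of -0.77 and -0.73.

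The remaining genes lay close together. Next lowest by median were Rps2 (-0.34), Rps28 (-0.20) and Rpl35a (-0.16), of which Rpl35a was below 0 in 9 of 9 classes. Highest were Rps18 (0.32), Rps9 (0.22), Rpl5 (0.22), Rpl14 (0.21) and Rpl17 (0.19). In mature OSN-like cells alone, 2 of 81 were lower past 1.5-fold, against 7.30% of all measured genes, and 0 were higher, against 3.64%. In immature OSN-like, endothelial-like, fibroblast-like, HBC-like and sustentacular-like cells 2 of 81, and in respiratory secretory-like and tuft-type microvillar-like cells 2 of 80, were lower, and 0 were higher. Of all measured genes of these 7 classes, in the same order, 5.17%, 6.81%, 6.52%, 8.57%, 5.09%, 7.86% and 5.03% were lower and 4.85%, 5.34%, 7.59%, 5.89%, 5.15%, 6.79% and 7.63% were higher. In macrophage or monocyte-like cells 4 of 81 were lower, Rpl29, Rpl26, Rplp0 and Rpl36al, against 20.7%, and 1 was higher, Rpl7l1, against 13.4%. The C1qa-led and Ccr2-led clusters made up this class in opposite proportions in the libraries, and their part in these calls was not tested. The feature list also holds features named as pseudogenes of Rps18, whose sequences were not compared here. Rps18-ps6 had 1 UMI in transgenic cells and 2404 in wild-type cells, and Rps18-ps5 had 13 and 721. With all 4 Rps18 features summed, the median log2 ratio over the 9 classes was 0.15. Whether reads of Rps18, Rpl29 or Rpl26 were divided with other features was not tested.

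**Figure D5:**
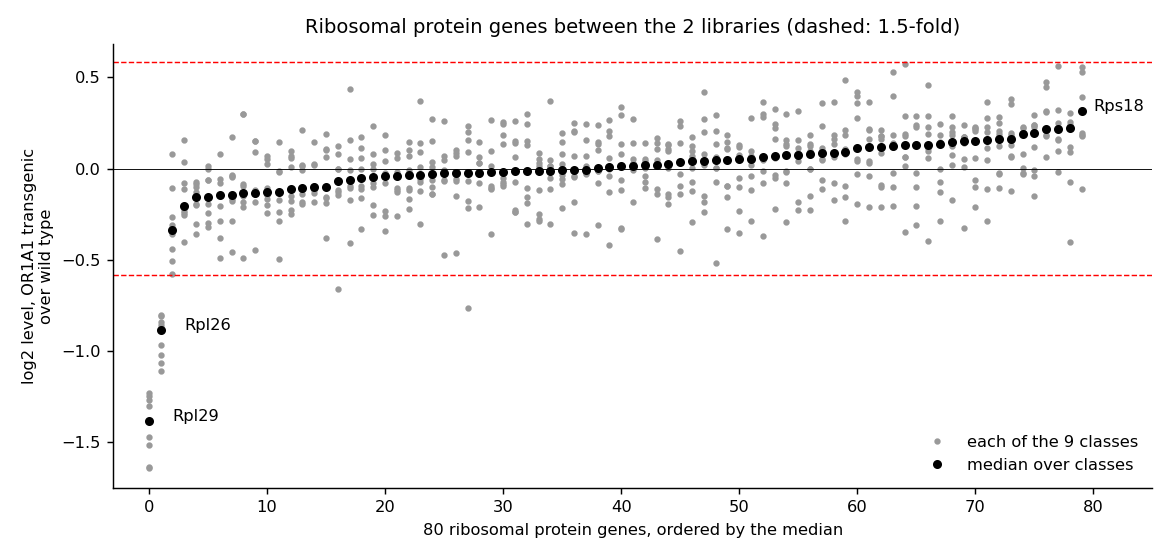
Log2 ratio of the level in the transgenic over the wild-type library (vertical axis) for 80 ribosomal protein genes ordered by their median, with grey points for 9 cell classes and a black point for the median. Rpl29, at -1.38, and Rpl26, at -0.88, lie below the dashed line of 1.5-fold in all 9 classes.

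Some neurons had few ribosomal protein UMIs. In mature OSN-like cells 27 of 665 transgenic (4.06%) and 41 of 447 wild-type cells (9.17%) had a share under 2%, a threshold set after the values were seen. In the transgenic library 16 mature cells lay between 1% and 2% and 15 between 2% and 3% and 17 between 3% and 4%, against 35, 10 and 12 of the wild type. The wild-type cells thus had a group apart under 2%, and the transgenic cells an even tail. The low cells had medians of 7386 UMIs and 7.52% mitochondrial UMIs in the transgenic library, against 14156 UMIs and 5.31% in the other mature cells. In the wild-type library these were 7488 UMIs and 7.81% in the low cells, against 12953 UMIs and 4.94%. Malat1, an RNA kept in the nucleus, took 9.51% of the UMIs of the low cells and 4.16% of those of the others in the transgenic library, and 6.81% and 3.76% in the wild type. The part of cell damage or of nuclei without cytoplasm in these cells was not tested.

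The other genes of translation moved less uniformly between mature and immature OSN-like cells. Fau and Rack1, which encode ribosomal proteins that carry other names, were lower past 1.5-fold in both libraries, with Fau at log2 ratios of -0.83 and -0.82 and Rack1 at -0.83 and -0.76 in the transgenic and wild-type library. Of 7 elongation factor genes 3 were lower and 1 was higher. Eef1a1, which brings aminoacyl-tRNA to the ribosome, stood at 1041 CPM in mature and 2214 CPM in immature transgenic cells and at 902 and 2141 CPM in wild-type ones. Its paralog Eef1a2, the form of mature neurons and muscle, went the other way, with 323 CPM in mature and 109 CPM in immature transgenic cells and 365 and 154 CPM in wild-type ones. Eef2, which moves the ribosome along the mRNA, had log2 ratios of -0.78 and -0.90.

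Of 33 initiation factors and binding proteins 9 were lower and 0 higher, among them Eif4ebp1, a repressor of cap-dependent initiation (-2.08 and -3.86), Eif3f (-1.64 and -1.52) and the helicase Eif4a1 (-0.84 and -1.15). Other mRNAs known to carry a TOP element were lower in 2 of 6 cases, Vim, an intermediate filament gene that was also used in clustering (-6.37 and -6.89), and Hnrnpa1 (-0.84 and -0.71), while Npm1 had -0.48 and -0.46. Of 22 measured genes of ribosome biogenesis 5 were lower and 0 higher, the lowest being Rrn3, an initiation factor of RNA polymerase I (-1.02 and -1.07), Fbl, which methylates ribosomal RNA (-0.89 and -0.88), and Gar1 (-0.65 and -0.86). The median of this list was -0.18 and -0.10, close to the -0.17 and -0.13 of all measured genes. Mitochondrial ribosomal protein genes, which serve the separate ribosomes of mitochondria, were lower in 6 and higher in 2 of 74 cases. Their median log2 ratio was -0.07 in the transgenic library, and -0.11 in the wild type, against -0.81 and -0.76 for the cytosolic set. Mrps18b (-0.98 and -1.33) and Mrpl49 (-1.06 and -0.93) were lowest and Mrpl51 (0.70 and 0.77) highest. Of 4 measured genes of the Myc family and its partners 1 was lower, Mycl, with 0.752 CPM in mature and 26.2 CPM in immature transgenic cells and 3.86 and 19.5 CPM in wild-type ones. The background for these lists is the same 21.3% lower and 14.6% higher of all measured genes.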

How the data were processed

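The authors deposited raw counts of UMIs for all barcodes, not filtered to cells. Per the submitters' processing notes Cell Ranger 6.1.1 and GRCm39 (mm39) were used, and per the file headers Cell Ranger 4. Cells needed 500 genes, no more than 10% mitochondrial UMIs, and a UMI minimum of 10% of the 99th percentile among the 5000 largest barcodes (5827.5 transgenic, 5317.7 wild type; never under 1000). Scrublet marked 4 transgenic and 2 wild-type cells, few enough that doublets remain likely. Cells were clustered together (scanpy 1.11.5, igraph 0.11.9, 2000 variable genes, 30 components, 15 neighbours, Leiden resolution 1, 28 clusters) without ribosomal, receptor, mitochondrial or transgene features, and named from 133 markers of 21 classes. Naming required a log2 excess of 1 on average and 3 markers at 2-fold. UMIs were summed per class and library. Log2 ratios were taken after adding 1 UMI to both sums, with 95% intervals from the conditional binomial, and shares have a Clopper-Pearson interval, all covering counting error only. PCR duplicates are removed by the UMIs. The genes named were the paralogs with an l and the 5 at each end of the mature over immature ratio, the library ratio and the UMI total, with the 5 widest class ranges, and others described were chosen after their values were seen. The set, the lists and the alternatives were chosen with earlier results of these data known. The stages, in order of Omp, include an unnamed cluster. RefSeq promoters (GRCm38.p6) gave sequences only, since the counts use another build. Reads of near-identical copies can be split between features; the authors' rule for them is not known here. Some results are not reported here.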

Additional observations from a re-analysis of the deposited data

Results flagged for a closer look

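The ribosomal protein share went in different directions between the libraries in different classes, which was not tested. Its log2 ratio of transgenic over wild type was 0.0199 in endothelial-like, 0.0609 in fibroblast-like, 0.12 in HBC-like, 0.11 in respiratory secretory-like and 0.14 in tuft-type microvillar-like cells. It was -0.0380 in immature OSN-like, -0.0608 in mature OSN-like, -0.13 in sustentacular-like and -0.28 in macrophage or monocyte-like cells. The immature ratio turned to 0.0051 and 0.0290 under 2 other settings. Within the clusters of the macrophage or monocyte-like class the transgenic share was higher, 11.3% against 9.64% in the C1qa-led and 21.0% against 17.4% in the Ccr2-led cluster.

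Features named as ribosomal pseudogenes, which the gene set leaves out, had UMIs above the 3 that a count of 0 allows. Rps18-ps6 had 2404 UMIs in wild-type cells and Rps18-ps5 had 13 in transgenic and 721 in wild-type cells. Rps18-ps4 had 4 in transgenic cells. Rpl10-ps3 had 368 in transgenic and 217 in wild-type cells, Rpl9-ps6 395 and 214, and Rpl36a-ps1 242 and 155. Over all 8 such features the UMIs came to 0.0340% of those of the ribosomal protein genes in the transgenic library, and 0.177% in the wild type.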

How the results depend on the processing

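No paired analysis was possible because each genotype had 1 library. Every alternative kept the lower ribosomal protein share of mature cells. Its log2 ratio to immature cells, transgenic and then wild type, was -0.87 and -0.83 at a minimum of 2000 UMIs and -0.87 and -0.83 at 500 UMIs, -0.62 and -0.67 at resolution 0.5, and -0.63 and -0.57 without the top 5% of doublet scores. It was -0.79 and -0.77 without mitochondrial UMIs, -0.82 and -0.71 as medians of the cells, and -0.83 and -0.83 thinned to 7900 UMIs (35 mature and 7 immature transgenic cells and 46 and 3 wild-type ones were shallower). With the Calb2-led cluster counted as immature it was -0.61 and -0.60, and without cells under a 2% share -0.80 and -0.74. At resolution 0.5 and without the top doublet scores the immature class held 351 and 333 transgenic cells, against 206. The count of 58 genes was 35 without the top doublet scores, 35 with the Calb2-led cluster and 19 at a 2-fold rule. The 2 genes past 1.5-fold between libraries in mature cells were 1 at 2-fold.

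Between libraries, the mature share's log2 ratio was -0.0366 at 500 UMIs, -0.0510 without the top doublet scores, -0.0793 as medians, -0.0467 thinned and -0.10 without cells under 2%. In immature cells it was -0.0238 at 2000 UMIs, -0.0041 at 500 UMIs, -0.11 at resolution 0.5, 0.0051 without the top doublet scores and 0.0290 as medians of the cells, the last 2 with the sign turned, so its direction rests on the processing. With 1 animal a genotype, 7 wild-type GBC-like cells and free RNA in every droplet, the depth limits the small classes most.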

Other observations

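Immune and blood cells varied widely. T or NK cell-like cells had ribosomal protein shares of 22.6% in the transgenic library, and 27.3% in the wild type (7 and 14 cells), and an unnamed cluster led by the granule genes Ctsg and Mpo had 26.1% and 25.7% (6 and 32 cells). An unnamed cluster led by the chemokine gene Ccl17 had 22.8% and 23.1% (11 and 12 cells). Neutrophil-like cells had 5.46% and 6.02% (8 and 79 cells). Within that class the cluster led by Camp, a granule gene of maturing neutrophils, had 5.18% in 1 transgenic cell and 8.60% in 24 wild-type cells, and the cluster led by Retnlg had 5.58% in 7 transgenic and 2.34% in 55 wild-type cells. Erythroid-like cells of the wild-type library ran from 0.525% to 38.2% from cell to cell (29 cells).

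Some gland-related clusters had low shares of summed UMIs. Bowman gland-like cells had 7.90% in the transgenic library, and 7.25% in the wild type (20 and 8 cells). An unnamed cluster whose leading genes include the odorant-binding protein genes Obp1a and Obp2a had 2.94% and 5.23% (11 and 17 cells). Its medians of the cells were 2.71% and 8.06%. An unnamed cluster led by Dcpp1, nearest in markers to sustentacular cells and then to Bowman gland, had 7.40% and 10.7% (39 and 32 cells). Olfactory ensheathing glia-like cells had 4.28% and 6.34% (13 and 5 cells), with medians of the cells of 3.89% and 3.83%, since 1 wild-type cell reached 20.4%.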
